A study of Caenorhabditis elegans with 11 samples.

Results

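The methyl ester of tryptophan-betaxanthin was set against tryptophan-betaxanthin itself, its parent compound, in tumour-bearing *C. elegans*. The members of the comparison were the 3 arrays of animals given tryptophan methyl ester-betaxanthin (trials 1, 2 and 3) and the 3 arrays of animals given tryptophan-betaxanthin (trials 1, 2 and 3), 6 of the 11 arrays of the series, chosen by their labels and joined by trial number. Both groups were whole JK1466 animals, a strain heterozygous for gld-1(q485) whose other chromosome carries dpy-5(e61) and unc-13(e51). Both were fed *E. coli* HT115 that carry the gld-1 RNAi construct, so strain and RNAi were common to all. How far gld-1 was reduced cannot be read here, as no array of animals without the RNAi was used. Each compound was given at 25 µM for 48 h, beginning 16 to 18 h after hatching according to the treatment label. The age label of 2 days from hatching (L4 larvae or young adults) is shorter than these times add up to, and the sources do not settle which holds. Dose, time and diet were therefore matched, and the difference between the molecules is that the carboxyl group of the tryptophan part, free in the parent, is esterified with a methyl group. The question was how gene expression differs between animals that receive the ester and animals that receive the parent. The strain is a model of a germline tumour in an animal that keeps its somatic tissues, and RNA was taken from the entire body, so no tissue was separated.

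Betaxanthins are yellow plant pigments in which betalamic acid is joined to an amino acid or an amine. GLD-1 is an RNA-binding protein that holds germ cells in meiosis and represses translation, and without it germ cells return to mitosis and fill the gonad. In the intestine of the worm, foreign molecules are handled by cytochromes P450, then by transferases that attach sugar or glutathione, and then by exporters, and nuclear hormone receptors are among the factors that switch the genes of these enzymes on.

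The values were log2 signals per probe set made by the authors with RMA, a procedure that corrects the background and equalises the arrays. Of 29317 probe sets, 26761 carried a gene symbol and were tested with limma, with the trial number as a block and adjustment by the Benjamini-Hochberg method at 0.05. The median log2 signal of the tested probe sets was 2.27, and lower signals may be near the background. The lowest correlation of any array with another was 0.961 and no arrays were identical. The methyl ester array of trial 3 stood apart from the others. Methyl ester arrays lay at a mean squared distance of 4581 from each other and parent arrays at 1758, and without trial 3 these distances were 1697 and 1197. The first principal component took 64.0% of the variance, with scores of 12.3, -0.912 and 68.7 for the methyl ester arrays and -31.1, -35 and -14.1 for the parent arrays of trials 1, 2 and 3. Counts are therefore given also without trial 3. Deviations from the group mean were correlated between the methyl ester array and the parent array of one number in each trial (0.214, 0.291 and 0.453). Across numbers, trials 1 and 2 also correlated (0.214 and 0.151), while pairs with trial 3 on one side had -0.401 to -0.277, so the number sets apart mainly trial 3. The labels call the trials independent. The block takes out differences in level between trials, so the p-values measure how far the difference between the groups varied from trial to trial. limma draws this spread towards that of all probe sets. Families of near-identical genes can share signal on an array, which leaves single members of the collagen, major sperm protein, P450 and T16G1 families uncertain.

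The methyl ester and the parent left the animals with different levels of 1970 probe sets, 7.36% of those tested. With the methyl ester, 945 were higher (3.53%) and 1025 were lower (3.83%). The highest differences included irg-4, an infection response gene, and several genes of cytochromes P450. The lower side held the very large difference of ugt-3, several cuticle collagen genes and many genes of the germline. Of 171 cuticle collagen genes, however, more were higher (17) than lower (8). Most differences were moderate, with a median log2 difference of 0.77 among the higher and -0.74 among the lower probe sets. Only 189 higher and 180 lower ones exceeded 1 log2 unit, and 15 and 5 exceeded 2. All 1970 had the same sign in the 3 trials, a property shared by 23.3% of all probe sets on the higher side and 23.3% on the lower side. In 1745 of the called probe sets the arrays of the groups did not overlap, which was the case in 26.3% of all probe sets. Before adjustment, a p under 0.05 was reached by 3452 higher and 3308 lower probe sets.

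**Figure D1:**
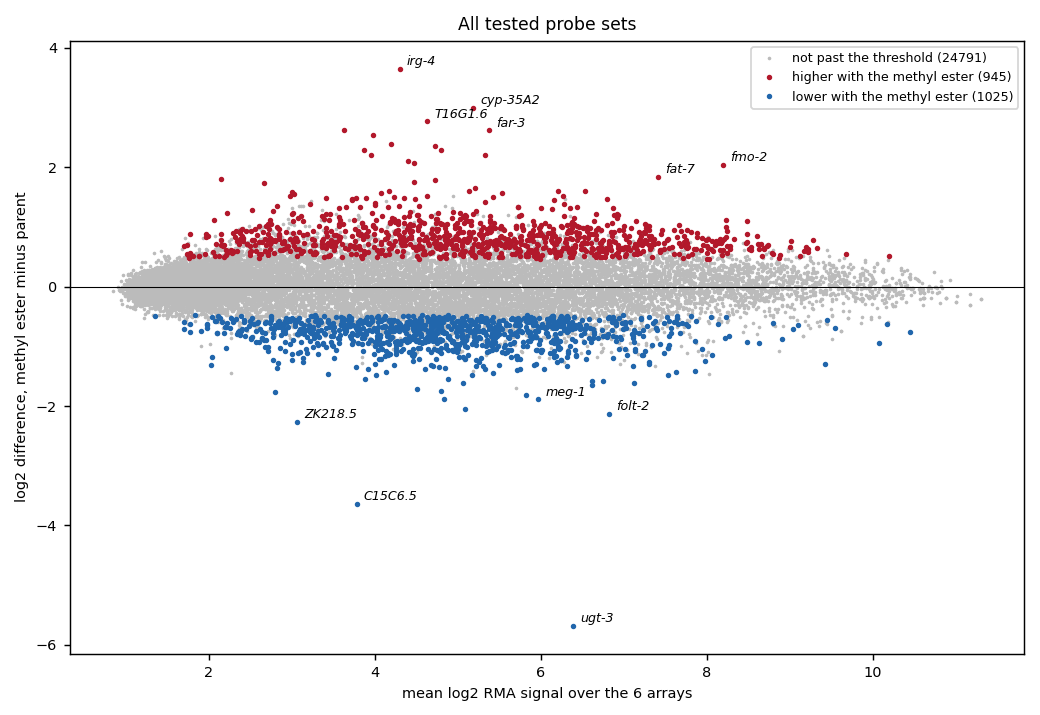
Each point is a tested probe set, with its mean log2 signal over the 6 arrays on the x axis and its log2 difference (methyl ester minus parent) on the y axis. The 945 higher and 1025 lower probe sets lie on both sides of 24791 that did not pass, with irg-4 at 3.65 and ugt-3 at -5.68 as the extremes.

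The count depended on the trials and on the block. Without trial 3, 1274 probe sets were higher (4.76%) and 1377 were lower (5.15%), and 1830 of the original 1970 passed again. Without trial 1 none passed (lowest adjusted p = 0.0765 from limma, 4913 at an unadjusted p under 0.05), and without trial 2 only 2 did (5696 unadjusted). When the trial number was not used as a block, 55 probe sets passed (0.206%), all of them among the 1970. The difference was widest in trial 3 for 668 of the 945 higher and 681 of the 1025 lower probe sets. Among the 24791 that did not pass, 94.7% had a 95% interval that lay wholly within 1 log2 unit of 0, and the interval typically reached 0.289 to each side of the estimate (median over all probe sets).

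The highest difference belonged to irg-4, an infection response gene with a CUB-like domain. Its log2 signal was 6.09, 5.86 and 6.43 in the methyl ester arrays of trials 1, 2 and 3, against 2.61, 2.25 and 2.56 in the parent arrays. The groups were far apart and each of them was narrow. This was a log2 difference of 3.65 (standard error 0.12, adjusted p = 0.00194 from limma), or 12.6-fold. The xenobiotic-responsive cytochrome P450 gene cyp-35A2 followed, with 6.63, 6.25 and 7.18 with the methyl ester, against 3.95, 3.72 and 3.40 with the parent. All its methyl ester arrays were above all its parent arrays, by a log2 difference of 3.00 (standard error 0.25, adjusted p = 0.0237). T16G1.6, from a cluster of related genes on chromosome V, had 6.32, 5.94 and 5.79 with the methyl ester, against 3.19, 3.46 and 3.08 with the parent (difference 2.77, standard error 0.15, adjusted p = 0.00568). Of the 13 measured T16G1 genes, 3 were higher (T16G1.6, T16G1.4 at 1.09 and T16G1.5 at 0.58) and none was lower, and the median difference of the 13 was 0.26.

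The nuclear hormone receptor gene nhr-259 had log2 signals of 4.68, 4.31 and 5.87 with the methyl ester, against 2.44, 2.37 and 2.16 with the parent. Trial 3 gave its widest difference, and the log2 difference was 2.63 with all trials (adjusted p = 0.0325) and 2.09 without trial 3 (adjusted p = 0.00015). It did not pass without the block (adjusted p = 0.064). The gene far-3 encodes a secreted protein that binds fatty acids and retinol. It had 6.71, 6.39 and 6.98 with the methyl ester, against 4.07, 3.88 and 4.27 with the parent (difference 2.62, standard error 0.11, adjusted p = 0.00219). Here the trials moved in parallel in both groups. The claudin-like gene clc-32 had 5.42, 4.68 and 5.67 with the methyl ester, against 2.83, 2.69 and 2.62 with the parent, a log2 difference of 2.55 (adjusted p = 0.0215). The other genes among the 12 highest were the P450 genes cyp-35B1 (2.40) and cyp-25A1 (2.21), the glucuronosyltransferase gene ugt-5 (2.29), and C40H1.8 (2.35), C23G10.11 (2.29) and F10D2.8 (2.2). The arrays of the groups did not overlap in any of the 12. Of these, nhr-259 and cyp-25A1 (adjusted p = 0.11) were lost without the block, while the other 10 passed.

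**Figure D2:**
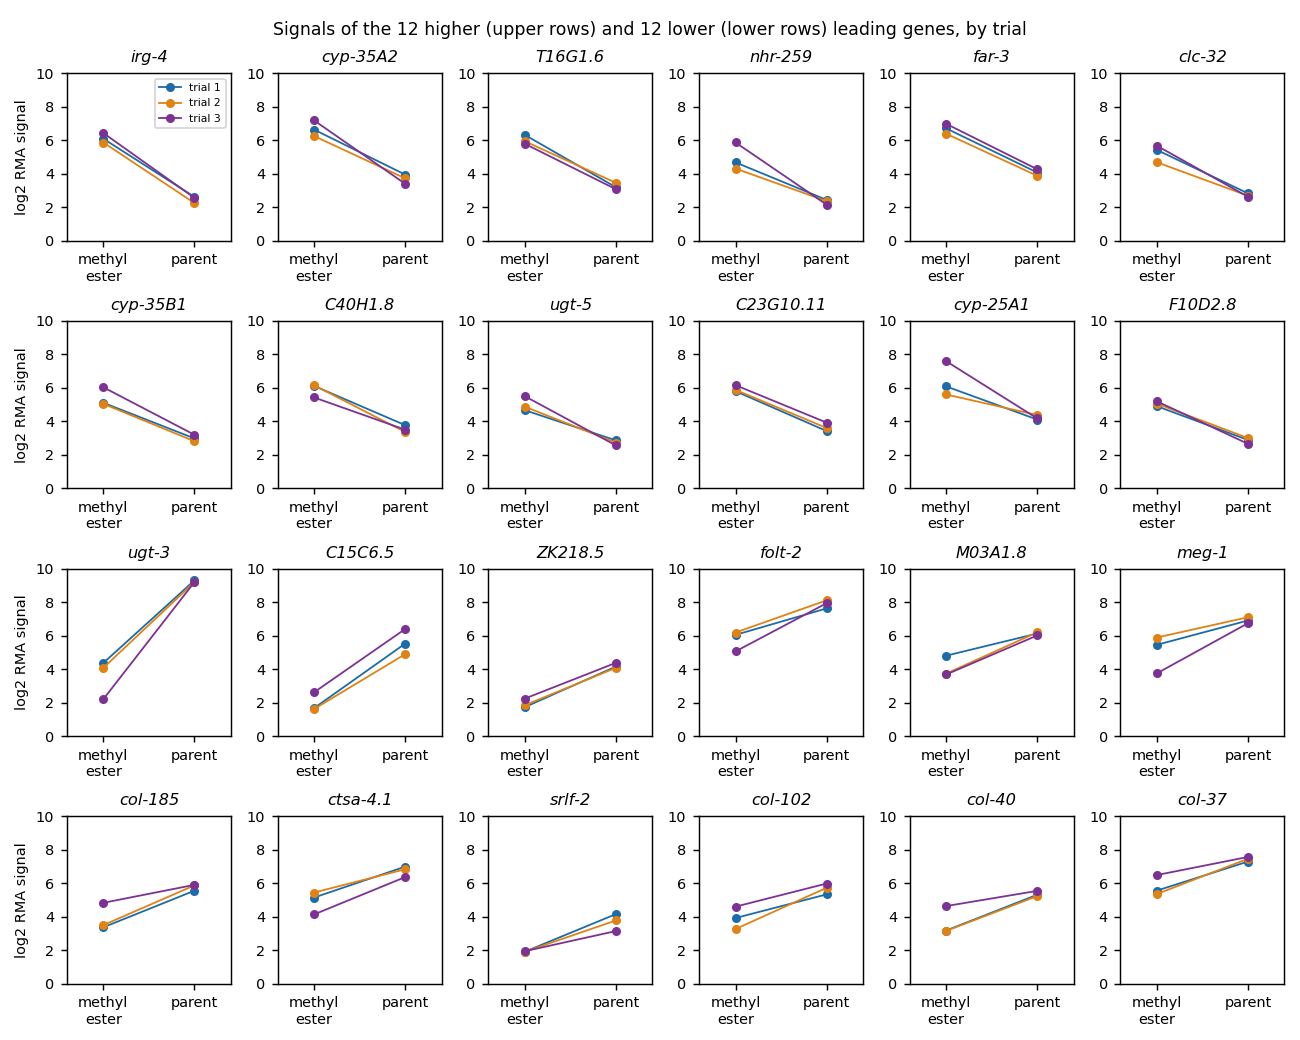
The log2 RMA signal of the 12 genes with the largest higher differences (2 upper rows) and of the 12 with the largest lower differences (2 lower rows), methyl ester left and parent right, with a line for each trial. No gene has overlapping groups, and ugt-3 has the steepest lines, with 4.37, 4.08 and 2.2 against 9.29, 9.19 and 9.19.

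On the lower side, ugt-3 was far from all other genes. It encodes a UDP-glucuronosyltransferase, an enzyme class that attaches a sugar to small molecules. Its log2 signal was 4.37, 4.08 and 2.2 with the methyl ester, against 9.29, 9.19 and 9.19 with the parent. In the parent arrays it was thus among the strong signals and hardly varied, while trial 3 of the methyl ester was at about the level of the median probe set. The log2 difference was -5.68 (standard error 0.39, 95% interval -6.63 to -4.72, adjusted p = 0.0148), and it was -5.02 without trial 3, whose methyl ester signal may be near the background. C15C6.5, listed as a non-coding RNA gene, had 1.67, 1.62 and 2.61 with the methyl ester, against 5.52, 4.89 and 6.39 with the parent (difference -3.63, standard error 0.14, adjusted p = 0.00219). The methyl ester signals of C15C6.5 in trials 1 and 2 lay under the median of all probe sets. ZK218.5 had 1.73, 1.84 and 2.23 with the methyl ester, against 4.15, 4.07 and 4.37 with the parent (difference -2.26, adjusted p = 0.00429). Since its methyl ester signals, like those of srlf-2 (1.91, 1.91 and 1.94) and gst-30 (1.5, 1.46 and 1.41), all lay under the median and may be near the background, the size of these differences is less certain than their direction.

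A gene of the folate transporter family, folt-2, had 6.04, 6.18 and 5.05 with the methyl ester, against 7.62, 8.10 and 7.93 with the parent. All its methyl ester arrays were lower than all its parent arrays, with a log2 difference of -2.13 (standard error 0.24, adjusted p = 0.0312, and 0.064 without the block). The germ granule gene meg-1 had 5.45, 5.88 and 3.74 with the methyl ester, against 6.90, 7.09 and 6.73 with the parent, a log2 difference of -1.88 that was -1.33 without trial 3. The cathepsin A homologue gene ctsa-4.1 differed by -1.82, M03A1.8 by -2.04 and srlf-2 by -1.77. The remaining genes among the 12 lowest were the cuticle collagen genes col-185 (-1.88), col-102 (-1.75), col-40 (-1.71) and col-37 (-1.64). Their pattern over trials was the opposite of meg-1, since trial 3 gave the narrowest difference for col-185 (3.37, 3.50 and 4.83 against 5.55, 5.87 and 5.90). Of the 12 lowest genes, ugt-3, C15C6.5 and ZK218.5 also passed without the block.

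Genes of the enzymes that oxidise foreign and endogenous small molecules were often higher with the methyl ester. Of 73 measured cytochrome P450 genes, 13 were higher and 2 were lower, 17.8% and 2.74% against the 3.53% and 3.83% of all probe sets. Their median log2 difference was only 0.12, against 0.00 over all probe sets, so most of the family differed little. The higher ones came mainly from a few subfamilies. In the cyp-35 subfamily, 4 of 10 measured genes passed (cyp-35A2, cyp-35B1, cyp-35C1 and cyp-35D1), and cyp-35C1 had 5.77, 5.27 and 5.33 with the methyl ester, against 3.26, 3.21 and 3.55 with the parent (difference 2.11, adjusted p = 0.018). cyp-35A1 (0.08, 95% interval -0.19 to 0.36) and cyp-35A3 (-0.08, -0.34 to 0.19) had signals below the median in all arrays. The genes cyp-25A1, cyp-25A2 (1.5) and cyp-25A3 (1.39) were higher together, and cyp-13A5 differed by 1.58 and cyp-34A9 by 1.14. The 2 lower P450 genes, cyp-31A2 (-0.93) and cyp-31A3 (-0.99), are known from work on the lipid layer of the eggshell. A link of their values to those of the oocyte genes described further on was not tested. Without trial 3 the family had 15 higher and 2 lower genes, and 3 passed without the block.

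Among the conjugating enzymes, 9 of 67 UDP-glucuronosyltransferase genes were higher (13.4%) and ugt-3 was the only lower one (1.49%), with a median of 0.16. The shares of all probe sets were 3.53% and 3.83%. Next to ugt-5 (4.67, 4.88 and 5.5 with the methyl ester, against 2.87, 2.73 and 2.57 with the parent), the higher ones included ugt-41 (1.23), ugt-39 (1.2), ugt-1 (1.18) and ugt-51 (1.14). The family thus held the lowest difference of all genes and several high ones, and ugt-3, ugt-5, ugt-39 and ugt-41 passed also without the block. Of 49 glutathione S-transferase genes, 6 were higher (12.2%), with gst-29 (0.88) and gst-15 (0.79) the largest among them, and 2 were lower (4.08%). The gene gst-44 had a larger difference that did not pass (0.98, adjusted p = 0.153). The lower members were gst-9, with 3.76, 4.25 and 4.76 with the methyl ester, against 6.34, 5.90 and 5.35 with the parent (difference -1.61, adjusted p = 0.0485), and gst-30 (-1.18). In gst-9 the difference was widest in trial 1 and narrowest in trial 3, and without the block gst-29 and gst-30 passed. Of 30 short-chain dehydrogenase genes, 5 were higher (16.7%), namely dhs-20 (1.03), dhs-18 (0.87), dhs-2 (0.81), dhs-5 (0.64) and dhs-27 (0.49). In this list dhs-8 was lower (-1.01), a share of 3.33%.

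Carboxylesterases cleave ester bonds, and whether they act on the methyl ester was not tested. Of 35 measured carboxylesterase genes, 4 were higher and none was lower. The median was 0.38, the highest of the 40 pathway and family lists. A positive sign in each trial was found in 23 of the 35, and in 23.3% of all probe sets. Smaller groups within other lists had higher medians, such as the 5 furrow collagens (0.70). Among the members, cest-4 had 5.24, 4.70 and 5.43 with the methyl ester, against 4.19, 4.26 and 4.23 with the parent (difference 0.90, 95% interval 0.49 to 1.30, adjusted p = 0.0381). The gene cest-8 differed by 0.90, cest-35.1 by 0.78 and cest-9.2 by 0.69. None of these differences reached 1 log2 unit, and none passed without the block. Of 35 exporter genes of the ABC class, 2 were higher and 2 were lower with a median of -0.02, 5.71% on each side and thus not far from the shares of all probe sets. Of these, pgp-1 (1.19) and pgp-2 (0.58) were higher and mrp-7 (-0.93) and abt-1 (-0.80) were lower.

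Nuclear hormone receptors are transcription factors that respond to small lipophilic molecules, and the worm has a large family of them. Of 276 measured receptor genes, 17 were higher (6.16%) and 1 was lower (0.362%), against 3.53% and 3.83% of all probe sets. In all trials, 110 had a positive sign and 18 a negative one, against 23.3% of all probe sets on each side. The median was 0.14. Behind nhr-259 came nhr-245, with 2.84, 3.17 and 4.59 with the methyl ester, against 1.94, 1.74 and 1.69 with the parent (difference 1.74, adjusted p = 0.0453). Trial 3 carried much of that value. The other differences were 0.49 to 1.11, among them nhr-234 (1.00), nhr-3 (0.78), nhr-8 (0.64), a receptor needed for resistance to toxins, and nhr-114 (0.66), a receptor that protects the germline through diet-dependent metabolism. The lower one was nhr-120 (-0.84). None of the 276 passed without the block.

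Fat metabolism genes differed in both directions, with the desaturase genes fat-7 and fat-5 higher. The gene fat-7 encodes a stearoyl-CoA desaturase that makes oleic acid. It had 8.39, 8.37 and 8.25 with the methyl ester, against 6.85, 6.51 and 6.14 with the parent. The methyl ester arrays hardly differed among themselves, and the log2 difference was 1.84 (95% interval 1.5 to 2.18, adjusted p = 0.018, and 0.034 without the block). The palmitoyl-CoA desaturase gene fat-5 differed by 0.77 and the elongase gene elo-4 by 1.02, while elo-7 was lower (-1.05). In all, 3 of 19 desaturase and elongase genes were higher (15.8%) and 1 was lower (5.26%), against 3.53% and 3.83% of all probe sets. Of 64 genes of peroxisomal and mitochondrial beta-oxidation, 7 were higher (10.9%) and 1, acdh-1 (-0.69), was lower (1.56%). Among the higher ones were the acyl-CoA oxidase gene acox-1.4 (0.69), the carnitine palmitoyltransferase gene cpt-4 (0.70) and ech-1.1 (0.79). Lipase genes had 4 higher (lips-7 at 0.95, lipl-4 at 0.94, lips-3 at 0.80 and lipl-2 at 0.77) and 1 lower (lips-6 at -0.73) of 25. These were 16% and 4% of the list. Fatty acid and lipid binding proteins had 4 higher (23.5%) and none lower of 17, with far-5 (0.99), far-7 (0.75) and lbp-7 (0.59) behind far-3.

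Yolk proteins carry lipid from the intestine to the oocytes. All 6 vitellogenin genes had lower signals with the methyl ester in each trial, and none passed. Their median difference was -0.43, -0.33 and -1.61 in trials 1, 2 and 3, so trial 3 was far wider than the others. For vit-1 the signals were 6.45, 7.01 and 5.25 with the methyl ester, against 7.23, 7.5 and 7.04 with the parent (difference -1.02, 95% interval -1.63 to -0.42, adjusted p = 0.0613). The intervals of the family leave differences beyond 1 log2 unit open. Without trial 3, 2 of the 6 passed with a median of -0.38.

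Among genes of the defence against microbes, more were called higher than lower. Of 130 measured innate immunity genes, 19 were higher (14.6%) and 3 were lower (2.31%), against 3.53% and 3.83% of all probe sets. Their median was 0.10. Lysozymes break bacterial walls, and ilys-3 had 5.83, 5.64 and 6.62 with the methyl ester, against 4.50, 4.45 and 4.18 with the parent (difference 1.65, adjusted p = 0.0338). ilys-2 had 3.60, 3.45 and 3.46, against 2.01, 2.15 and 2.30 (difference 1.35, adjusted p = 0.0293, and 0.021 without the block). Of the saposin-like antimicrobial genes, spp-13 differed by 1.42. All 8 infection response (irg) genes had a positive sign in each trial and 3 passed, irg-4, irg-5 (1.12) and irg-2 (0.95). By contrast, the lysozyme gene lys-5 was lower, with 7.35, 7.71 and 7.02 with the methyl ester, against 8.83, 8.68 and 8.30 with the parent (difference -1.24). Of the innate immunity genes, irg-4 and ilys-2 passed without the block. C-type lectins are secreted proteins many of which respond to pathogens. Of 240 lectin genes, 16 were higher and 9 were lower with a median of 0.00. The shares were 6.67% and 3.75%, the lower one being close to the 3.83% of all probe sets. The higher ones included clec-76 (1.52) and clec-52 (1.48), and the lower ones clec-73 (-1.21).

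Neuropeptides are released by neurons and by some epidermal cells to signal to other cells. Of 116 measured neuropeptide genes, 17 were higher and none was lower, 14.7% against 3.53% of all probe sets. The median was 0.33, and 74 had a positive sign in each trial against 6 with a negative one. Among all probe sets, 23.3% had a positive sign in each trial and 23.3% a negative one. The gene nlp-34, of a neuropeptide-like class that is also expressed in the epidermis, had 7.15, 6.91 and 7.95 with the methyl ester, against 5.58, 5.55 and 6.05 with the parent (difference 1.61, adjusted p = 0.0244). The FMRFamide-related genes flp-4 (1.18) and flp-7 (0.86) and nlp-10 (0.82) were also higher. By class, 13 of 77 nlp genes and 3 of 31 flp genes passed. None of the family passed without the block. Of the 6 neuron markers, none passed, and their median was 0.26 with summed linear signals of 1271 to 1662 with the methyl ester and 1080 to 1150 with the parent. The part of neuronal RNA content in the neuropeptide result was not tested.

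Of the lists described here, those of the germline and of cell division had the highest shares of lower genes. In the lists of oocyte and eggshell, germ granule, meiosis, and DNA replication and mitosis genes, 19 of 30, 12 of 20, 14 of 29 and 18 of 45 members were lower with the methyl ester and none was higher. Of 30 genes of the oocyte and eggshell, 19 were lower, 63.3% against 3.83% of all probe sets. Their median was -1.12, and 29 of the 30 had a negative sign in each trial, against 23.3% of all probe sets. The gene lin-41 controls the growth and the maturation of oocytes. It had 4.43, 5.21 and 4.17 with the methyl ester, against 5.75, 6.11 and 5.64 with the parent (difference -1.23, 95% interval -1.57 to -0.89, adjusted p = 0.0307). The gene egg-3, needed at the change from egg to embryo, had 5.43, 6.11 and 4.51, against 6.68, 7.13 and 6.37 (difference -1.37, adjusted p = 0.0325). The arrays of the groups did not overlap for either gene, and trial 2 had the highest signals in both groups. The zinc finger gene mex-1 differed by -1.33, the chitin synthase gene chs-1 by -1.39 and the yolk receptor gene rme-2 by -1.33. Only mbk-2, a kinase of the same transition, had a mixed sign (-0.04, 95% interval -0.51 to 0.43). In whole animals, fewer cells of a type and less RNA per cell cannot be told apart.

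Germ granules are RNA-protein bodies that mark germ cells. Of 20 genes of their components, 12 were lower (60%, against 3.83% of all probe sets), with a median of -0.69. All 20 had a negative sign in each trial, against 23.3% of all probe sets. Besides meg-1, the intrinsically disordered protein genes meg-3 (2.72, 3.00 and 2.23 with the methyl ester, against 4.0, 4.05 and 3.04 with the parent, difference -1.05) and meg-4 (-1.12) were lower, as were mip-1 (-1.22) and pgl-3 (-1.02). The 4 meg genes had medians of -1.11, -1.04 and -1.10 in trials 1, 2 and 3, although meg-1 itself was widest in trial 3. Of 29 meiosis genes, 14 were lower (48.3%) with a median of -0.68. Among them were the cohesin gene coh-3 (3.60, 3.71 and 3.10, against 4.80, 4.79 and 4.47, difference -1.22, adjusted p = 0.0293), the polo kinase gene plk-2 (-1.06) and the recombinase gene rad-51 (-0.63).

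**Figure D3:**
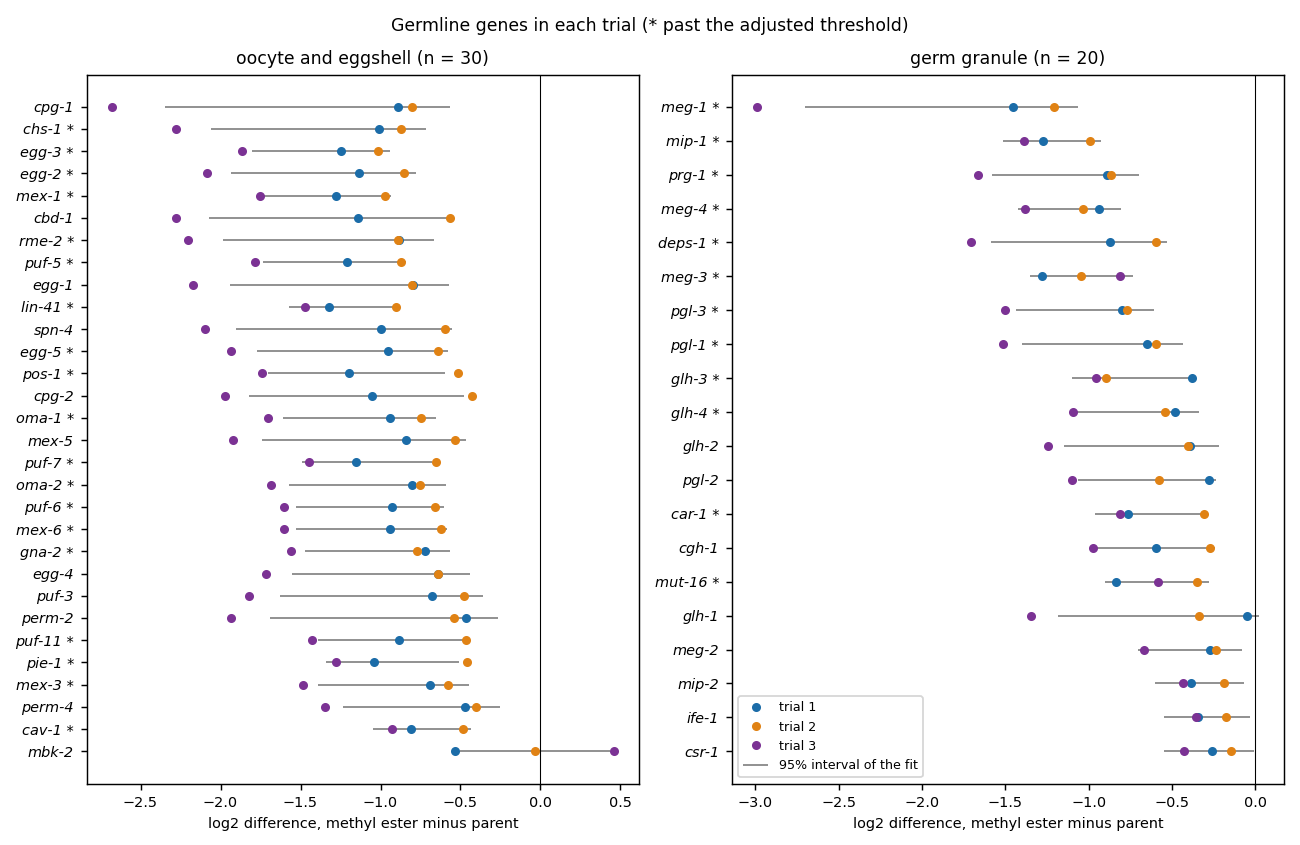
Log2 difference (methyl ester minus parent) of the 30 oocyte and eggshell genes and the 20 germ granule genes in trials 1, 2 and 3 (points), with the 95% interval of the fit (lines). All points lie below 0 except that of mbk-2 in trial 3, and trial 3 is the leftmost for most genes.

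Of 45 genes of DNA replication and mitosis, 18 were lower (40%, against 3.83% of all probe sets) with a median of -0.52. Here the trials were close, with medians of -0.59, -0.50 and -0.59. They included the phosphatase gene cdc-25.1 (-1.32), which drives entry into division, the spindle checkpoint gene mdf-2 (-1.0), the kinesin gene zen-4 (-0.97) and the cyclin gene cyb-3 (-0.72). Of the 6 genes of the MCM helicase that opens DNA for replication, 4 were lower (66.7%), with a median of -0.56. Of 24 genes of germline stem cells and the gld-1 network, 8 were lower (33.3%) with a median of -0.57. The F-box gene fog-2, a partner of GLD-1 in sperm specification, had 5.56, 6.21 and 4.64 with the methyl ester, against 6.61, 6.77 and 6.23 with the parent (difference -1.06, adjusted p = 0.038). The Nanos gene nos-3 differed by -0.79, the Notch receptor gene glp-1 by -0.56, the RNA-binding genes gld-3 by -1.31 and daz-1 by -1.17. The gene gld-1, target of the RNAi in both groups, had 6.74, 7.33 and 5.91 with the methyl ester, against 7.12, 7.45 and 7.14 with the parent. Its groups overlapped, and the difference of -0.58 (95% interval -1.11 to -0.05) did not pass (adjusted p = 0.164).

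Of 87 measured sperm genes, 12 were lower and none was higher, 13.8% against 3.83% of all probe sets on the lower side, and the median was -0.52. They included spe-41 (-1.17), spe-44 (-1.05), a transcription factor of the sperm programme, and spe-5 (-0.78). None of the 26 major sperm protein genes passed, although 22 had a negative sign in each trial, against 23.3% of all probe sets. Their median was -0.43, -0.20 and -1.34 in trials 1, 2 and 3, so that trial 3 carried most of it.

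The weight of trial 3 was not the same in each of these lists. The oocyte and eggshell median was -0.93, -0.64 and -1.75 in trials 1, 2 and 3. Without trial 3, 28 of the 30 oocyte genes were lower with a median of -0.79, and the counts were 11 of 20 for germ granules, 15 of 29 for meiosis, 21 of 45 for replication and mitosis, 14 of 24 for stem cells and the gld-1 network, and 11 of 87 for sperm. Without trial 1 no probe set of any list passed, and without trial 2 only 2 of all probe sets did. No gene of these 6 lists passed without the block. The smallest adjusted p without it among those named was 0.072 (coh-3).

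Markers of single cell types, some of which also belong to the lists above, were set beside these results. Of 6 oocyte markers, 4 were lower (66.7%, against 3.83% of all probe sets). The summed linear signal of the 6 was 147 to 475 with the methyl ester and 607 to 783 with the parent. Of 5 germline markers, 3 were lower (60%), with sums of 73.1 to 196 with the methyl ester and 235 to 308 with the parent. The groups did not overlap in either sum, and they did not overlap in 26.3% of all single probe sets. Of 5 sperm markers, 2 were lower (40%) and the sums overlapped (240 to 516 with the methyl ester and 352 to 403 with the parent). The oocyte markers all lay above the median signal in these animals fed gld-1 RNAi, the lowest being oma-1 with a mean of 4.48. Of the somatic lists, intestine had 1 higher of 6 (elt-7, a GATA factor, 1.06) and body wall muscle 1 higher of 6 (tni-1, 0.52). Each was a share of 16.7%, against 3.53% of all probe sets. Hypodermis (5 genes), pharynx (4) and gonad sheath (3) had none. Summed intestine signals were 1943 to 2378 with the methyl ester and 1924 to 2153 with the parent, and those of muscle were 3380 to 3531 with the methyl ester and 3366 to 4139 with the parent.

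Cuticle collagens build the coat that is renewed at each moult. Of 171 measured genes, 17 were higher and 8 were lower, with a median of 0.12. These are 9.94% and 4.68%, against 3.53% and 3.83% of all probe sets, so the lower share was near that of all probe sets. Among the higher ones, col-90 had 5.48, 5.43 and 6.01 with the methyl ester, against 4.50, 4.12 and 4.62 with the parent (difference 1.23, adjusted p = 0.0293). The furrow collagens, which form the circular furrows of the coat, had a positive sign in all trials in all 5 measured genes, and dpy-9 (0.86), dpy-3 (0.77) and dpy-8 (0.64) passed. Next to the 4 collagens among the leading genes, the lower ones were col-51 (-1.39), col-2 (-1.29), col-72 (-1.21) and col-93 (-0.70). Among 106 genes of moulting and hedgehog-related proteins, 11 were higher (10.4%) and 2 were lower (1.89%), with a median of 0.25. The higher ones included hog-1 (1.00) and grd-5 (0.79), and the lower ones were grd-4 (-1.01) and grl-25 (-1.08). Without trial 3 the collagen counts were 30 higher and 17 lower, and no collagen passed without the block.

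Stress and signalling lists differed in their shares of called genes, which are set beside the 3.53% higher and 3.83% lower of all probe sets. Of 36 oxidative stress genes, 5 were higher (13.9%) and none was lower. The peroxidase gene gpx-1 had 6.03, 5.87 and 6.05 with the methyl ester, against 5.17, 4.63 and 4.60 with the parent (difference 1.19, adjusted p = 0.0325), and the metallothionein gene mtl-2 (1.18) the superoxide dismutase genes sod-4 (0.76) and sod-3 (0.68) and the catalase gene ctl-2 (0.54) were also higher. The small heat shock genes hsp-12.3 (1.00), hsp-12.1 (0.92) and hsp-16.41 (0.69) were higher, 3 of 19 (15.8%). The small heat shock gene sip-1, known from oocytes and embryos, was lower (-1.04), a share of 5.26%. In hydrogen sulfide metabolism, the cystathionine lyase gene cth-1 (1.07) and the persulfide dioxygenase gene ethe-1 (0.83) were higher, with cysl-3 (0.52) making 3 of 18 (16.7%). The flavin monooxygenase gene fmo-2, chosen after its value was seen, averaged 9.21 ± 0.41 with the methyl ester and 7.17 ± 0.97 with the parent (SD, n = 3 each, difference 2.05, adjusted p = 0.0293). Of 54 insulin signalling genes, 4 insulin-like peptide genes were higher, namely ins-18 (1.06), ins-12 (0.98), ins-17 (0.65) and ins-11 (0.60), and 2 were lower, the subunit gene aap-1 (-0.51) and the host cell factor gene hcf-1 (-0.80). Those counts were 7.41% and 3.70% of the insulin list, with a median of 0.04, and the lower share was near that of all probe sets. The unfolded protein response had 1 higher gene of 23, ubl-5 (0.63), a share of 4.35% that was also near that of all probe sets.

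Of 28 genes of propionate, folate and methionine metabolism, 2 were higher (7.14%) and 3 were lower (10.7%), against 3.53% and 3.83% of all probe sets. The lower ones, folt-2, hach-1 (-0.92) and acdh-1 (-0.69), are a folate transporter and 2 enzymes of the propionate breakdown shunt. For acdh-1 the signals were 9.35, 9.21 and 9.06 with the methyl ester, against 9.88, 9.83 and 9.97 with the parent, so the groups were narrow and apart. The folate enzyme gene dao-3 (0.83) and the receptor gene nhr-114 were higher.

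TOR signalling couples growth to nutrients, and the TOR subunits and the caspases were named by the study as genes of interest. Of 25 TOR genes, 3 were lower (12%, against 3.83% of all probe sets) and none was higher, with a median of -0.14. The gene mlst-8, a subunit of both TOR complexes, had 3.28, 3.44 and 3.13 with the methyl ester, against 4.15, 4.19 and 3.76 with the parent (difference -0.75, 95% interval -1.01 to -0.49, adjusted p = 0.0326). The groups did not overlap. The others were nprl-2 (-0.69) and clk-2 (-0.66). The raptor gene daf-15 had 5.21, 5.30 and 5.25, against 5.38, 5.43 and 5.29, and its difference of -0.11 had an interval of -0.36 to 0.14. The rictor gene rict-1 had 3.80, 3.83 and 3.67, against 4.08, 4.56 and 4.18 (difference -0.51, interval -0.81 to -0.20, adjusted p = 0.0635). The groups of rict-1 did not overlap, yet it missed the threshold. For sinh-1, the difference was -0.22 (interval -0.58 to 0.14). None of the TOR genes passed without the block.

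Of 31 genes of cell death, 4 were lower (12.9%, against 3.83% of all probe sets) and none was higher, with a median of -0.11. The executioner caspase gene ced-3 had 3.34, 3.70 and 3.23 with the methyl ester, against 4.30, 4.19 and 3.95 with the parent (difference -0.73, 95% interval -1.04 to -0.42, adjusted p = 0.036, and 0.11 without the block). The p53-like gene cep-1 (-0.94), the nuclease gene crn-1 (-0.62) and the engulfment gene ced-2 (-0.50) were also lower. The caspase gene csp-1 had signals under the median of all probe sets, 1.46, 1.49 and 1.45 with the methyl ester, against 2.03, 1.82 and 1.75 with the parent (difference -0.40, interval -0.67 to -0.13, adjusted p = 0.0842). The part of germline RNA in the values of the TOR and cell death lists was not tested.

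The compounds carry tryptophan, and its metabolism was examined for that reason. None of the 16 genes of tryptophan, kynurenine and serotonin metabolism passed, and all 16 intervals lay within 1 log2 unit of 0. The smallest p belonged to the tryptophanyl-tRNA synthetase gene wars-1 (-0.54, 95% interval -0.91 to -0.17, adjusted p = 0.0837). Among the basic cell functions, none of 73 cytosolic ribosomal protein genes passed, with all intervals within 1 log2 unit. Of 69 mitochondrial ribosomal genes 1 was lower (mrpl-39 at -0.52), of 60 respiratory chain genes 2 were lower (ucr-2.3 at -1.08 and sdha-2 at -0.87), of 33 proteasome genes 1 was lower (rpn-2 at -0.50), and none of 34 histone genes passed. Genes of autophagy (atg-10 higher at 0.80 and cup-5 lower at -0.69 of 28) and of intestinal proteases (asp-12 at 1.34 and asp-14 at 0.80 higher, and nep-8 at -1.01, cpr-8 at -0.64 and nep-10 at -0.63 lower, of 52) gave few calls.

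**Figure D4:**
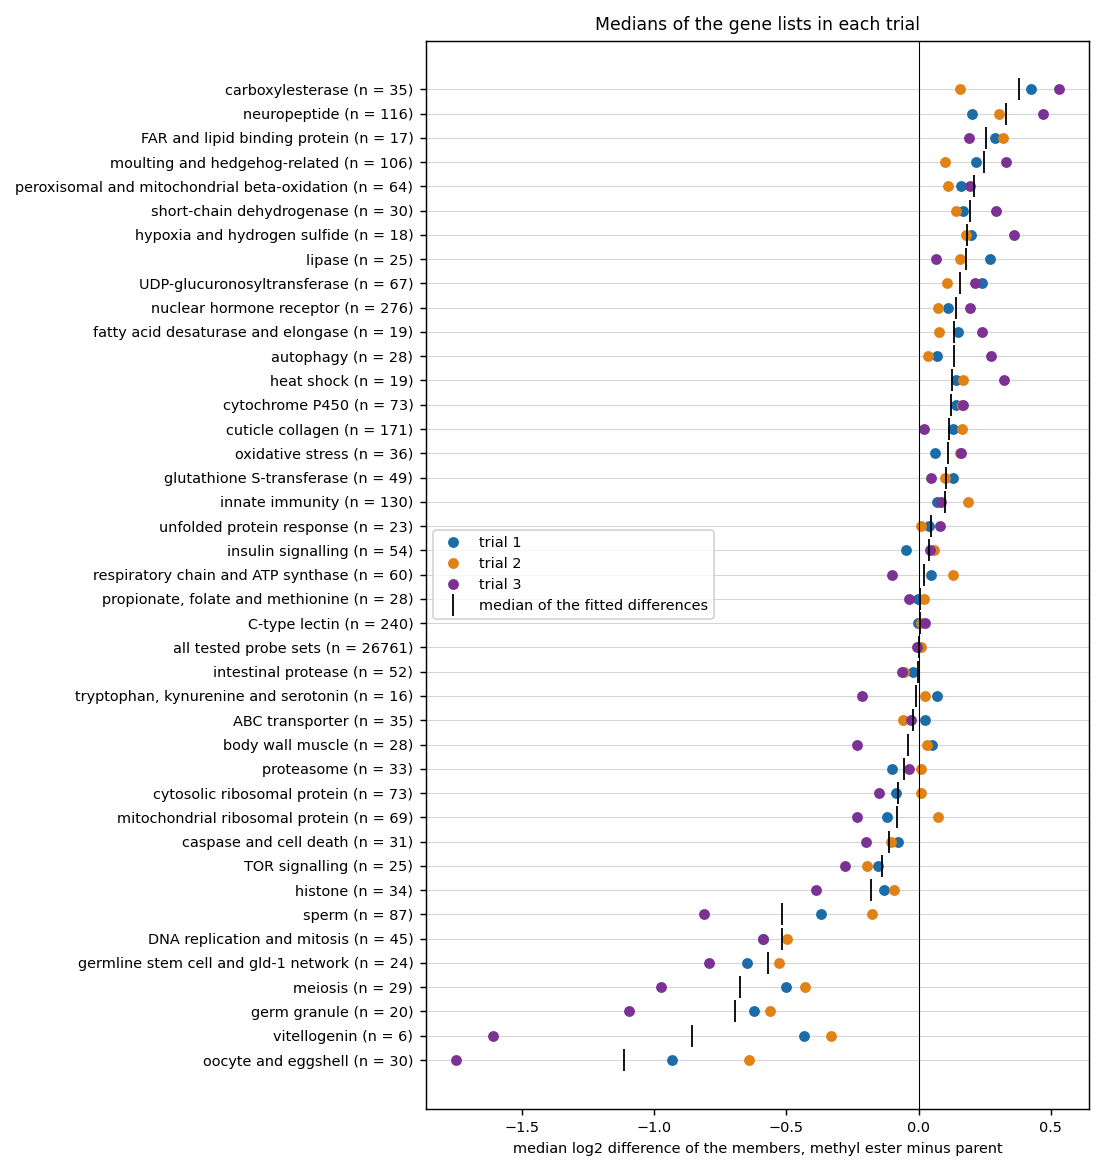
Median log2 difference (methyl ester minus parent) of the measured genes of each list in trials 1, 2 and 3 (points) and of the fitted differences (bars), with the number of genes. Carboxylesterase and neuropeptide genes are at the top (0.38 and 0.33), all probe sets are at 0.00, and the oocyte and eggshell genes are at the bottom (-1.12), with trial 3 farthest from 0 in most germline lists.

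The lower genes were unevenly spread over the chromosomes. Of 24676 genes matched to RefSeq, 3.67% were higher and 4.01% were lower. On the X chromosome 3.74% of 4925 genes were higher and 0.569% were lower, which is 28 genes. The lower share was 6.81% on chromosome I, 6.24% on III, 5.14% on IV, 4.50% on II and 2.98% on V. Chromosome V had the highest share of higher genes, 5.0% of 5439. Genes expressed in the germline are known to be scarce on the X chromosome of this species, and many nuclear receptor and P450 genes lie on V. Protein-coding genes supplied most calls (883 higher and 950 lower of 17477), and non-coding RNA genes few (16 higher and 25 lower of 6678).

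The benzyl ester carries a benzyl group on the same carboxyl and was given at the same dose for the same time, so its 3 arrays show whether a leading difference is shared by another ester. In a fit of the 9 arrays of the 3 compounds, 37 probe sets differed between the methyl and the benzyl ester (0.138%). The pairs tested in that fit were methyl ester against parent, benzyl ester against parent and methyl against benzyl ester, with p-values adjusted over all probe sets within each. Of the 24 leading genes, 4 differed between the esters. The gene irg-4 was 2.82 log2 units higher with the methyl ester than in the benzyl ester arrays (95% interval 2.05 to 3.59, adjusted p = 0.0289). T16G1.6 was 1.86 higher (1.56 to 2.16, adjusted p = 0.00359) and C23G10.11 was 2.06 higher (1.58 to 2.55, adjusted p = 0.0127), the benzyl ester being at 0.23 from the parent in the last. For folt-2 the esters lay on opposite sides of the parent, at -2.13 with the methyl and 1.16 with the benzyl ester, a difference of -3.28 (-3.79 to -2.77, adjusted p = 0.00359).

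For the other 20 leading genes the difference between the esters did not pass. Some intervals were narrow, as for F10D2.8 (0.13, 95% interval -0.22 to 0.47) and cyp-35B1 (0.33, -0.01 to 0.66). Others left large differences open, as for ugt-3, which was -5.68 with the methyl and -2.43 with the benzyl ester from the parent (difference -3.25, interval -4.59 to -1.90, adjusted p = 0.199). For cyp-35A2 the difference between the esters was 0.56 (-0.08 to 1.2), and for meg-1 it was 0.06 (-0.80 to 0.93). The comparisons with the parent share the parent arrays.

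**Figure D5:**
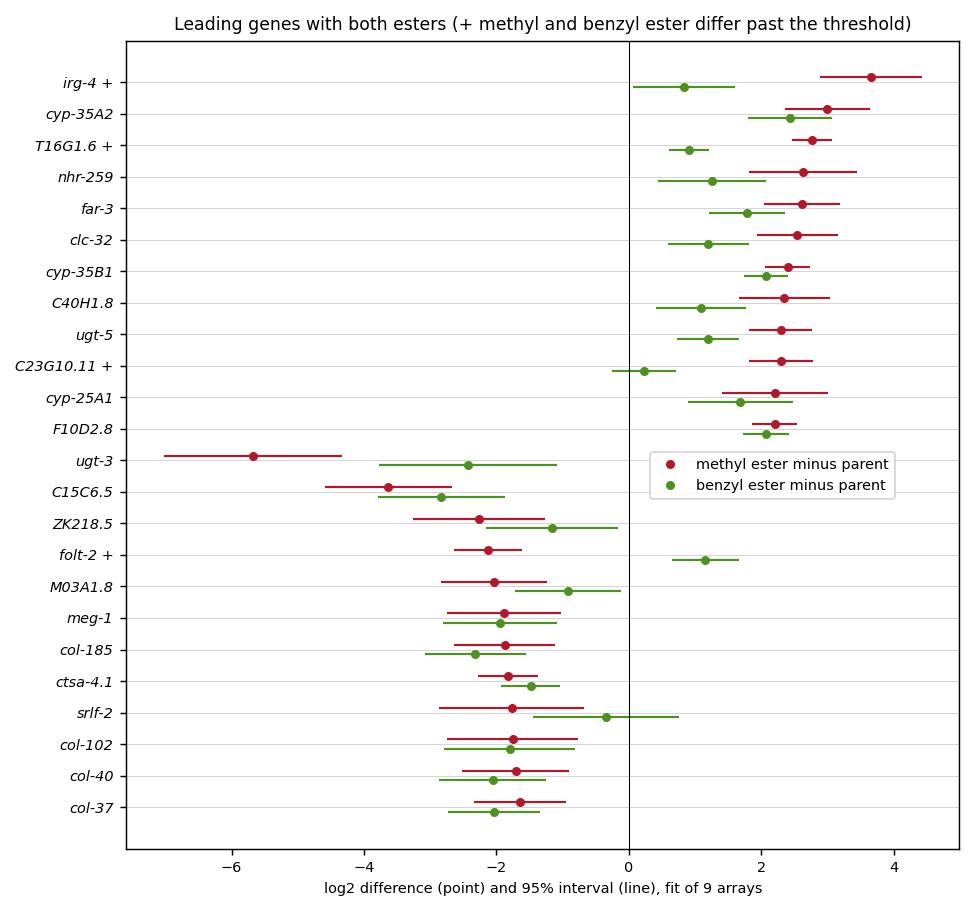
Log2 difference from the parent (x axis) with its 95% interval for the 24 leading genes, methyl ester in red above benzyl ester in green, from the fit of 9 arrays. The esters lie on opposite sides of 0 for folt-2 (-2.13 and 1.16), and irg-4, T16G1.6, C23G10.11 and folt-2, marked +, differ between the esters past the threshold.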

How the data were processed

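RNA of whole animals was hybridised to C. elegans Gene 1.1 ST arrays. The deposited table holds log2 signals per probe set, which the authors made by RMA. The submitters' processing notes name the Affymetrix Expression Console and the study's methods the Transcriptome Analysis Console, with versions not given in the sources used here. Nothing was normalised again. Of 29317 probe sets, 2556 without a symbol were left out, because array controls may be among them, 26281 had 1 symbol and 480 had several. Symbols came from the platform annotation, and 24801 probe sets were matched to RefSeq genes. A gene with several probe sets (138 of 26128) was represented by the one with the highest mean. Arrays give no counts, and their number limits the precision.

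The model held group and trial. The fit used lmFit and eBayes of limma 3.58.1 (R 4.3.3), with 2 residual and 4.07 prior degrees of freedom. It was tested on simulated data with the same noise in all arrays of a probe set. In the real data, estimated array weights were 0.589 in trial 3 against 1.37 and 1.24 in trials 1 and 2. The simulation cannot show how the fit behaves under such unequal noise. The trial number was used as a block because same-numbered arrays of both groups deviated together in all 3 trials (correlations of 0.214, 0.291 and 0.453). Across numbers, trials 1 and 2 correlated as well (0.214 and 0.151), and pairs with trial 3 did not (-0.401 to -0.277). The text names the 12 higher and 12 lower genes with the largest differences past the threshold whose trials share a sign and whose higher mean reaches the median signal, up to 3 members of each of 49 lists with the smallest p, the TOR and caspase genes of the study, and gld-1. Other list members are examples chosen after their values were seen. The members and the lists were chosen with earlier results of these data known, and a few symbols that do not belong to their list (non-collagens, a flippase, nspc genes) were taken out after values had been seen. A list is described by counts and its median, with no test. No sequence was used. The water arrays enter only the alternative with 11 arrays. The alternatives were the fit without the block, 9 or 11 arrays, median centring, cyclic loess, array weights, a robust prior with an intensity trend, a filter on dim probe sets, no filter on symbols, averaging of a gene's probe sets, other thresholds, and each trial left out.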

Additional observations from a re-analysis of the deposited data

How the results depend on the processing

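The number of probe sets that differed between the methyl ester and the parent was 1970, and with each trial left out it was between 0 and 2651 (0 without trial 1, 2 without trial 2 and 2651 without trial 3). Without the trial number as a block it was 55, without the block and without trial 3 it was 1098, and with all 11 arrays and no block it was 366. At an adjusted p under 0.1 it was 4286, at 0.01 it was 6, and at an unadjusted p under 0.05 it was 6760. The other settings gave 1380 (9 arrays) to 2691 (array weights), and no named value changed its direction past the threshold. The share of higher calls was 48.0%, against 74.5% without the block, 68% with 11 arrays, 59.2% with 9 arrays and 38.4% after median centring, which moved the median of all probe sets to -0.05. Of 122 named genes past the threshold, 21 passed without the block, 95 with 9 arrays, 41 with 11 arrays, 120 without trial 3, 2 without trial 2 and 0 without trial 1. The signs of list medians changed under some settings only for lists with a main median within 0.081 of 0. The causes were not tested. Leaving out a trial leaves 2 pairs of arrays, and dim probe sets cannot show a lower level.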
